A study of Mus musculus with 12 samples.

Results

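The genes of the major histocompatibility complex (MHC) and of antigen processing were followed in donor T cells that had infiltrated the liver after allogeneic hematopoietic cell transplantation (HCT). Every gene whose name begins with H2- was taken, together with B2m, Tap1, Tap2, Tapbp, Tapbpl, Erap1, Psmb8, Psmb9, Psmb10, Psme1, Psme2, Nlrc5, Ciita, and Cd74. This gave 58 of the 25078 genes listed, 44 by the prefix and 14 by name. They comprise 34 class I chains (B2m included), 11 class II genes (Cd74 included), 10 genes of peptide generation, transport, and loading, the transactivators Nlrc5 and Ciita, and H2-Ke6, which lies in the region but encodes a hydroxysteroid dehydrogenase and no MHC chain. The rule goes by gene name and uses no measured value, though it was set with earlier results of these data known.

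The study asked how PD-1 signaling acts on STAT3-deficient donor T cells in tissues attacked by graft-versus-host disease. Lethally irradiated BALB/c mice (H-2d), WT in every label, received T cells from C57BL/6 donors (H-2b). They also received T cell-depleted bone marrow from WT C57BL/6 donors. The donor T cells were WT, STAT3-/- (STAT3ko in the labels: floxed Stat3 deleted by Cre under the Cd4 promoter, so that the deletion covers both CD4+ and CD8+ T cells), or STAT3-/-PD-1-/- (STAT3ko PD-1ko: the same deletion on a germline PD-1-/- background). On day 6 after HCT, H-2Kb+TCRβ+CD4+ or H-2Kb+TCRβ+CD8+ cells were sorted from the liver and sequenced. Each of the 6 groups has 2 libraries, and each library pools lymphocytes of 3 recipients, so that the spread below is between 2 pools. Ages were not given in the sources used here. In the paper, WT and STAT3-/-PD-1-/- T cells caused lethal acute graft-versus-host disease, whereas STAT3-/- T cells caused a mild and reversible form. Genotype and disease in the recipients thus differ together between these groups. Library totals ran from 21676125 to 24551477 counts. The gate selected the protein of H2-K1 on every sorted cell, so the presence of H2-K1 transcripts is no finding.

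MHC class I molecules consist of a heavy chain and β2-microglobulin and display peptides that proteasomes cut in the cytosol, TAP carries into the endoplasmic reticulum, and tapasin helps to load. MHC class II molecules bind peptides from the endosome, after the invariant chain CD74 has been removed and H2-DM, restrained by H2-DO, has exchanged the remaining fragment. Interferon-γ induces both sets, with NLRC5 as the transactivator of class I genes and CIITA as that of class II genes. Nearly all mouse cells carry class I, whereas mouse T cells, unlike human T cells, are known to make little class II.

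The targeted genes were read first, as a check of the labels. Levels below are counts scaled to library size, with TMM factors, and given as CPM (normalized CPM) unless RPKM, which also divides by exon length, is named. Stat3 was at 368 and 467 normalized CPM in WT CD4+, 140 and 164 in STAT3-/- CD4+, and 157 and 219 in STAT3-/-PD-1-/- CD4+ libraries. Among CD8+ T cells it was at 397 and 384 in WT, 149 and 135 in STAT3-/-, and 154 and 235 in STAT3-/-PD-1-/- libraries. The counts cover the whole gene, and reads from the exons left after deletion were not told apart from reads of an intact transcript. Pdcd1, which encodes PD-1, was at 247 and 235 in WT, 261 and 323 in STAT3-/-, and 55.1 and 26.0 in STAT3-/-PD-1-/- CD4+ libraries, and at 376 and 307, 424 and 454, and 93.5 and 65.5 in the same groups of CD8+ T cells. The log2 fold change of Stat3 between STAT3-/- and WT was -1.46 in each subset and missed the threshold (SE 0.22, adjusted p = 0.055 in CD4+ and SE 0.20, adjusted p = 0.108 in CD8+ T cells, by edgeR). DESeq2 and the edgeR fit with no filter called it in both subsets, and the replicate block in CD4+ T cells. Between STAT3-/-PD-1-/- and WT it was -1.13 (adjusted p = 0.018) and -1.0 (adjusted p = 0.0177, both by edgeR). In neither subset did a library from floxed donors overlap WT for Stat3, nor a PD-1-/- library overlap the others for Pdcd1. The log2 fold change of Pdcd1 between STAT3-/-PD-1-/- and WT was -2.55 in CD4+ (SE 0.33, adjusted p = 0.00566) and -2.09 in CD8+ T cells (SE 0.19, adjusted p = 0.00243, both by edgeR). The subsets were likewise separate. Cd4 was at 1241 to 1887 normalized CPM in the CD4+ libraries and at most 2.73 in the CD8+ libraries, whereas Cd8a was at 589 to 1339 in the CD8+ libraries and at most 5.64 in the CD4+ libraries.

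Of the 58 genes, 49 lie on chromosome 17 (mm10), and the 44 H2- genes span positions 33974659 to 37483554. B2m lies on chromosome 2, Nlrc5 on chromosome 8, and Tapbpl on chromosome 6. Counts are over the exons of a gene. In all, 12 had no count in any library and 6 more never exceeded 3 counts. The test, described below, could be applied to 37 genes in CD4+ and to 36 in CD8+ T cells, whereas 21 were too low in both subsets. Those 21 are mostly class Ib genes, and they include Ciita, which had 3 to 15 counts per library. H2-L, H2-Q8, H2-Q9, and H2-T9 were listed at 0 throughout and H2-Q7 at 1 count in 1 library. Each of these 5 gene models overlaps a neighbor on its strand (H2-L with H2-D1, H2-Q8 with H2-Q6, H2-Q7 with H2-Q9, H2-T9 with H2-T22), so a read can belong to both models. Class I heavy chains are also near-identical paralogs, and the split of 51 bp reads among them is uncertain for every H2-K, H2-D, H2-Q, and H2-T gene named here.

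Per length, class I dominated. Across the 12 libraries, B2m ran from 2187 to 3457 normalized RPKM, H2-K1 from 879 to 1596, and H2-D1 from 335 to 528. Among class Ib genes, H2-Q4 (101 to 248 RPKM), H2-Q6 (126 to 193), and H2-T23 (61.4 to 137) were the highest, and the ranges of these 3 genes overlapped. Psmb8 (331 to 424 RPKM) was the highest of the immunoproteasome genes, followed by Psmb9 (139 to 225), and their ranges did not overlap. Tap1 ran from 154 to 231 RPKM, and Nlrc5 from 49.7 to 105. In class II, Cd74 ran from 1.35 to 27.0 RPKM, H2-DMa from 4.75 to 14.0, H2-Oa from 4.32 to 9.42, and H2-Ab1 from 0.522 to 4.69. The 2 chains of I-A and the β chain of I-E, the classical class II molecules, thus stayed at or below 4.69 RPKM in every library.

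The sum of the 33 class I heavy chains was 2590 and 2578 normalized RPKM in WT CD4+, 2756 and 2646 in STAT3-/- CD4+, and 2108 and 2350 in STAT3-/-PD-1-/- CD4+ libraries. For CD8+ T cells the sum was 2068 and 2066 in WT, 2053 and 2095 in STAT3-/-, and 1605 and 1846 in STAT3-/-PD-1-/- libraries. In both subsets the STAT3-/-PD-1-/- libraries lay below all others. The sum of the 11 class II genes ran the other way in CD4+ T cells, from 28.5 and 32.4 in WT to 32.7 and 44.6 in STAT3-/- and 42.3 and 51.7 in STAT3-/-PD-1-/- libraries, and the latter 2 groups overlapped. The same sum in CD8+ T cells was 12.9 and 18.1, 17.9 and 22, and 18.8 and 22.5 in the same order, and the STAT3-/- and STAT3-/-PD-1-/- libraries overlapped here too. Class I heavy chains accordingly stood at 91.0 and 79.7 times the class II sum in WT CD4+ and at 49.9 and 45.5 times it in STAT3-/-PD-1-/- CD4+ libraries, and at 161 and 114 against 85.2 and 82.2 times in CD8+ T cells. These sums carry no test. They rest on a few genes, H2-K1 for class I and, in CD4+ T cells, Cd74 for class II, which supplied 29.9% and 32.8% of the class II sum in WT and 50.3% and 52.3% in STAT3-/-PD-1-/- CD4+ libraries. As these are bulk libraries, fewer cells with a transcript and less transcript per cell cannot be told apart.

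**Figure D1:**
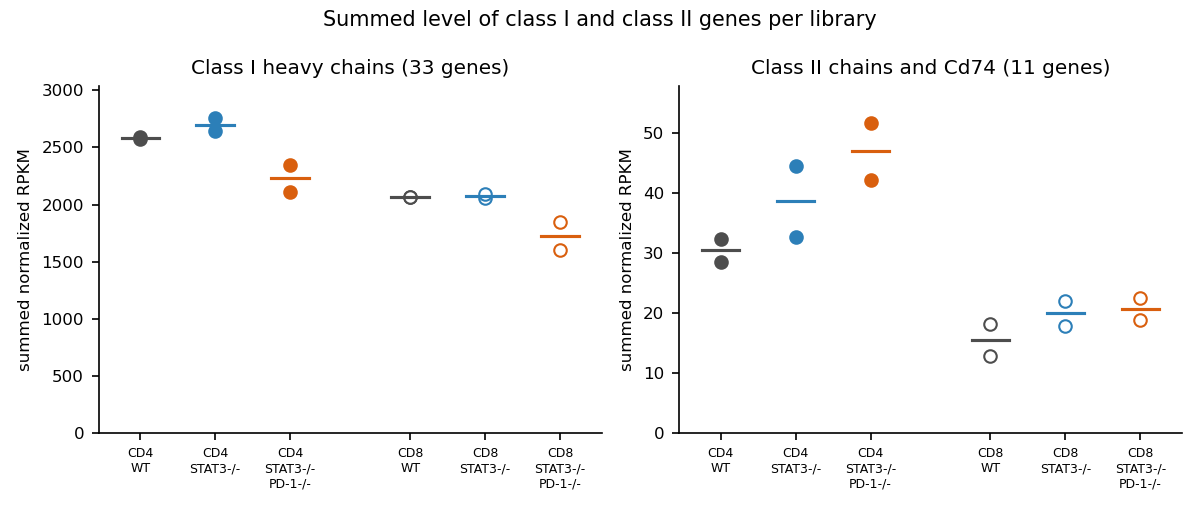
Summed level of the 33 class I heavy chains (left) and of the 11 class II genes (right), in normalized RPKM from 0, for each of the 12 libraries. Points are libraries (filled for CD4+, open for CD8+ T cells) and bars are means of 2; the STAT3-/-PD-1-/- libraries are the lowest of their subset for class I, and in CD4+ T cells the class II sum runs from 28.5 in a WT library to 51.7 in a STAT3-/-PD-1-/- library.

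The first comparison was of STAT3-/- with WT T cells, which differ in genotype by STAT3. Disease in the recipients differed too, and its part was not tested. A fit took in the 6 libraries of a subset, so that all 3 genotypes share an estimate of the spread. No gene of the set passed an adjusted p of 0.05 in either subset (quasi-likelihood test of edgeR, adjusted by Benjamini-Hochberg over all genes tested). Of 37 tested in CD4+ T cells 0 were called, beside 0.334% of all 11959 genes tested, and in CD8+ T cells 0 of 36, beside 0.0583% of 12002. At an unadjusted p under 0.05 there were 4 in each subset, beside 10.5% and 11% of all genes. DESeq2 called 1 gene among CD4+ libraries and 0 among CD8+ libraries, and the share of all genes it called is not given here. The values closest to a call in CD4+ T cells were those of H2-T24, a class Ib gene. H2-T24 was at 15.7 and 12.7 normalized CPM in WT and at 31.4 and 29.3 in STAT3-/- CD4+ T cells, a log2 difference of 1.10 (SE 0.30, adjusted p = 0.236 by edgeR). It is the gene that DESeq2 called, and it was also called with the replicate number as a block. H2-T24 in CD8+ T cells was at 14.8 and 10.6 in WT and at 22.2 and 24 in STAT3-/- libraries, a log2 difference of 0.86 (SE 0.31, adjusted p = 0.385 by edgeR). The libraries of the 2 genotypes did not overlap in either subset, as was the case for 38.2% and 43.6% of all genes tested. The median log2 fold change was 0.12 for class I chains, 0.14 for class II genes, and 0.12 for processing genes in CD4+ T cells, beside 0.01 for all genes tested. Among CD8+ T cells these medians were 0.02, 0.12, and 0.02, beside -0.01.

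WT and STAT3-/-PD-1-/- CD4+ libraries differed in 7 of the 37 genes tested, 4 higher and 3 lower without PD-1 and STAT3. This is 18.9%, beside 12.9% of all genes tested in this comparison, of which 7.21% were called higher and 5.65% lower. The 4 that rose were Cd74, H2-Ab1, H2-Q10, and Psmb9. The 3 that fell were H2-Ob, H2-K2, and H2-Ke6. By class, 2 of 15 class I chains, 3 of 10 class II genes, and 1 of 10 processing genes were called, and the medians were -0.15, 0.01, and 0.17 on the log2 scale, beside -0.01 for all genes.

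Cd74, the invariant chain, gave the smallest adjusted p of the set in this comparison. It was at 12 and 15 normalized CPM in WT, 19.1 and 22.5 in STAT3-/-, and 30.1 and 38.2 in STAT3-/-PD-1-/- CD4+ libraries. The 3 genotypes did not overlap. Its log2 fold change from WT to STAT3-/-PD-1-/- CD4+ libraries was 1.36 (SE 0.22, adjusted p = 0.0099 by edgeR), and it was 1.32 between the libraries numbered 1 and 1.35 between those numbered 2. H2-Ab1, the β chain of I-A, was at 1.41 and 2.46 in WT, 2.31 and 3.42 in STAT3-/-, and 4.67 and 5.6 in STAT3-/-PD-1-/- CD4+ libraries, a log2 fold change of 1.43 over WT (SE 0.37, adjusted p = 0.0440 by edgeR). Here the WT and STAT3-/- libraries overlapped and the STAT3-/-PD-1-/- libraries lay above both. H2-Aa, the α chain that pairs with it, did not rise with it. H2-Aa was at 0.591 and 1.31 normalized CPM in WT, 0.989 and 1.16 in STAT3-/-, and 0.346 and 0.397 in STAT3-/-PD-1-/- CD4+ libraries, a log2 difference of -1.33 from WT (SE 0.52, adjusted p = 0.140 by edgeR). H2-Ob, the β chain of H2-DO, fell from 1.41 and 1.65 in WT to 0.476 and 0.437 in STAT3-/-PD-1-/- CD4+ libraries (log2 fold change -1.71, SE 0.43, adjusted p = 0.0404 by edgeR), with 11 counts in each of the latter libraries. This call was lost with DESeq2. H2-DMa did not pass the test and stayed at 22.5 to 25.3 normalized CPM in STAT3-/-PD-1-/- beside 22.6 to 23.8 in WT CD4+ T cells.

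On the class I side, H2-Q10 and Psmb9 rose in CD4+ T cells. H2-Q10 encodes a secreted class Ib chain known from liver and serum. It was at 27.0 and 29.3 normalized CPM in WT, 34.6 and 31.4 in STAT3-/-, and 50.5 and 50.6 in STAT3-/-PD-1-/- CD4+ libraries, a log2 fold change of 0.87 over WT (SE 0.15, adjusted p = 0.0128 by edgeR). The STAT3-/-PD-1-/- libraries lay above all the others. The 8 hepatocyte markers (Alb, Apoa1, Apoa2, Ttr, Fabp1, Ahsg, Serpina1a, Apoc3) summed to 0.865 and 1.35 CPM in these libraries and to 0.954 and 1.35 in WT CD4+ T cells. None of the markers but Apoa2 was above 0.508 CPM in these 4 libraries. In STAT3-/- CD4+ T cells they summed to 0.706 and 0.844. Apoa2 alone was at 0.500 and 0.381 in WT, 0.282 and 0.356 in STAT3-/-, and 0.736 and 0.754 in STAT3-/-PD-1-/- CD4+ libraries, highest where H2-Q10 was, and it passed the test against neither (log2 difference 0.78 from WT, SE 0.43, adjusted p = 0.283, and 1.22 from STAT3-/-, SE 0.45, adjusted p = 0.123, both by edgeR). In CD8+ T cells the 8 markers summed to 0.800 and 1.68 in WT, 0.734 and 0.899 in STAT3-/-, and 1.46 and 2.08 in STAT3-/-PD-1-/- libraries, and Apoa2 was at 0.623 and 0.918, 0.431 and 0.572, and 1.10 and 1.35, again highest without PD-1, whereas H2-Q10 in these STAT3-/-PD-1-/- libraries overlapped WT. The part of hepatocyte transcripts in H2-Q10 was not tested. Psmb9, a catalytic subunit of the immunoproteasome, was at 124 and 112 in WT, 164 and 159 in STAT3-/-, and 182 and 172 in STAT3-/-PD-1-/- CD4+ libraries (log2 fold change over WT 0.61, SE 0.14, adjusted p = 0.0294 by edgeR). Psmb8 was at 405 and 405 in WT and at 483 and 518 in STAT3-/-PD-1-/- CD4+ libraries without passing the test (log2 difference 0.33, SE 0.13, adjusted p = 0.142 by edgeR). All 5 genes of the immunoproteasome and its activator (Psmb8, Psmb9, Psmb10, Psme1, Psme2) had positive values in this comparison, and only Psmb9 was called.

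The fall of H2-K2 stood in both subsets. H2-K2, annotated in RefSeq as a transcribed pseudogene, lies at chr17:33974659-33978791, next to H2-K1 at chr17:33996012-34000347. It was at 26.6 and 16.3 normalized CPM in WT, 30.2 and 21.8 in STAT3-/-, and 10.9 and 9.89 in STAT3-/-PD-1-/- CD4+ libraries, and at 23.3 and 11.2, 24.8 and 16.1, and 7.51 and 6.04 in the same groups of CD8+ T cells. The library numbered 1 was the higher in every group, and every STAT3-/-PD-1-/- library lay below every other library of its subset. The log2 fold change from WT was -1.02 in CD4+ (SE 0.27, adjusted p = 0.0495) and -1.34 in CD8+ T cells (SE 0.37, adjusted p = 0.0476, both by edgeR). Both calls were lost with limma on log2(RPKM + 1), and the call in CD4+ T cells also with RLE scaling. H2-Ke6, the dehydrogenase, was at 41.8 and 44.9 in WT and at 27.5 and 28.8 in STAT3-/-PD-1-/- CD4+ libraries, without overlap (log2 fold change -0.60, SE 0.15, adjusted p = 0.0429 by edgeR). None of the 7 calls in CD4+ T cells held without either STAT3-/-PD-1-/- library. Without WT library 1 only the call of Cd74 held, and without WT library 2 those of Cd74 and H2-K2.

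**Figure D2:**
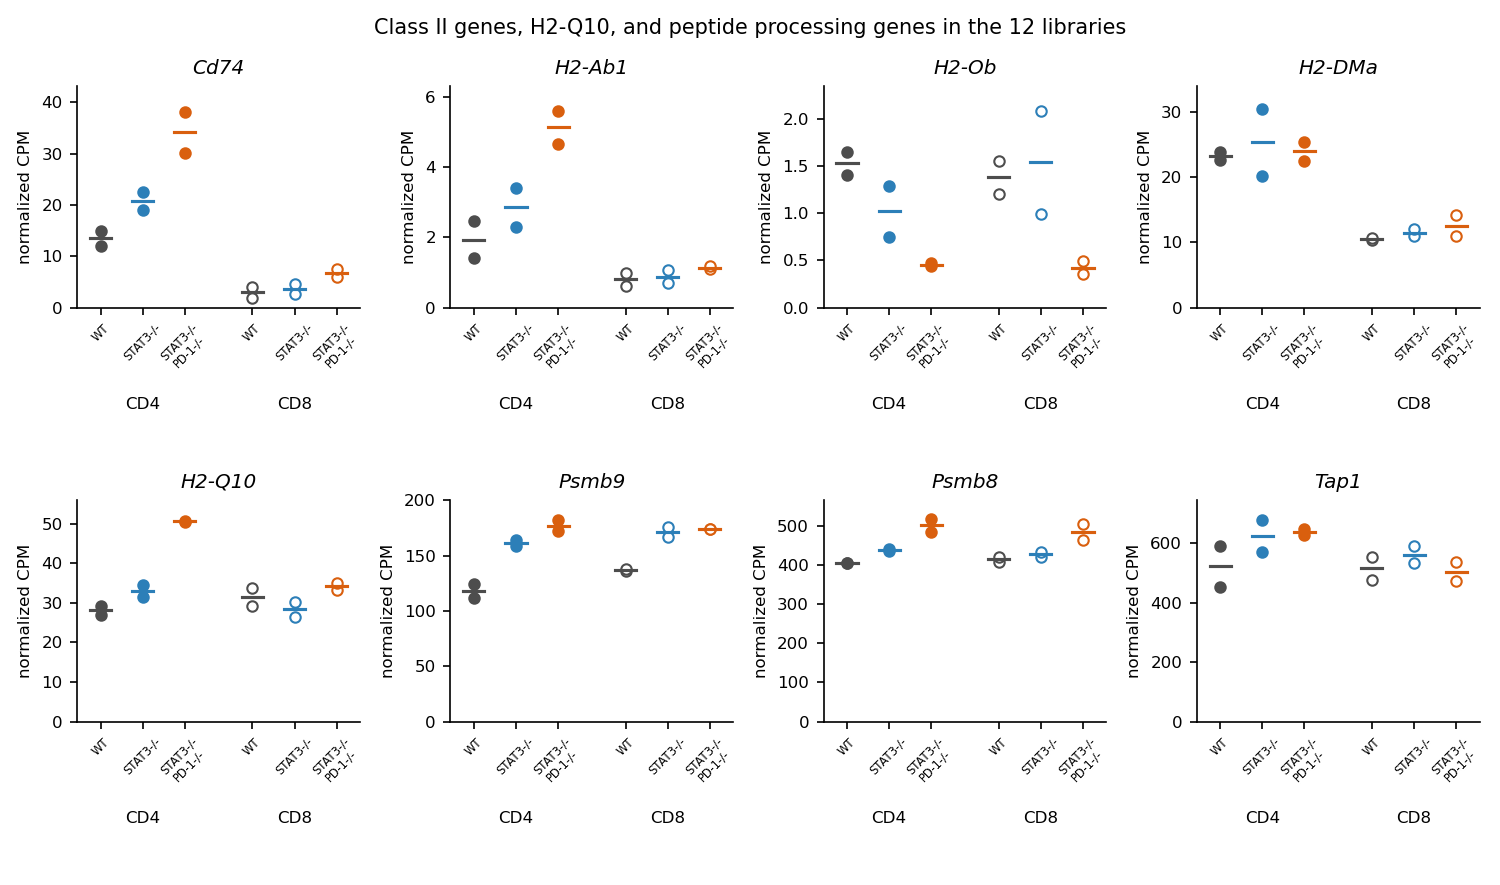
Normalized CPM from 0 of 8 genes in the 12 libraries, 4 of class II, H2-Q10, and 3 of peptide processing. Points are libraries (filled for CD4+, open for CD8+ T cells) and bars are means of 2; Cd74 climbs from 12 and 15 in WT to 30.1 and 38.2 in STAT3-/-PD-1-/- CD4+ libraries and stays under 8 in CD8+ T cells.

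STAT3-/-PD-1-/- and WT CD8+ T cells differed in 4 of the 36 genes tested, and all 4 were lower. They are H2-T23, H2-M3, H2-K2, and Nlrc5. This is 11.1%, beside 17.2% of all genes tested in this comparison and 8.21% called lower. More genes of the set were called by DESeq2, with no filter, with the replicate block, and by limma, as given in the part on processing. The medians were -0.26 for the 15 class I chains, -0.26 for the 9 class II genes, and -0.02 for the 10 processing genes on the log2 scale, beside 0.00 for all genes.

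H2-T23 encodes Qa-1, a class Ib molecule that presents leader peptides of other class I chains to receptors of NK and T cells. It was at 122 and 127 normalized CPM in WT, 128 and 132 in STAT3-/-, and 80.9 and 83.9 in STAT3-/-PD-1-/- CD8+ T cells, a log2 fold change of -0.59 from WT (SE 0.11, adjusted p = 0.0155 by edgeR). In CD4+ T cells it was at 161 and 164, 170 and 180, and 125 and 116, and the log2 difference from WT was -0.41 (SE 0.14, adjusted p = 0.0947 by edgeR). The STAT3-/-PD-1-/- libraries were the lowest of their subset both times, and the spread within each group was small. H2-M3, a class Ib chain that presents formylated peptides, was at 49.0 and 57.6 in WT, 46.1 and 53.7 in STAT3-/-, and 35.9 and 36.6 in STAT3-/-PD-1-/- CD8+ T cells (log2 fold change from WT -0.55, SE 0.14, adjusted p = 0.0413 by edgeR). Nlrc5, the transactivator of class I genes, was at 541 and 653 in WT, 558 and 729 in STAT3-/-, and 368 and 345 in STAT3-/-PD-1-/- CD8+ T cells (log2 fold change from WT -0.74, SE 0.16, adjusted p = 0.0235 by edgeR). In CD4+ T cells Nlrc5 was at 391 and 493, 503 and 666, and 397 and 362, and its WT and STAT3-/-PD-1-/- libraries overlapped.

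The main class I transcripts shifted less. H2-K1 was at 1844 and 1855 normalized CPM in WT and at 1459 and 1628 in STAT3-/-PD-1-/- CD8+ T cells (log2 difference -0.25, SE 0.10, adjusted p = 0.120 by edgeR). H2-D1 went from 785 and 702 to 581 and 648, and B2m from 2125 and 2575 to 1877 and 1919. In each of these 3 genes the STAT3-/-PD-1-/- libraries lay below the WT libraries, without overlap as in 59.7% of all genes tested, and no call was made. In CD4+ T cells H2-K1 was at 2416 and 2328 in WT and at 1969 and 2100 in STAT3-/-PD-1-/- libraries, and H2-D1 at 916 and 883 and at 694 and 769, again without overlap (59.2% of all genes) and without a call, whereas B2m was at 2357 and 1905 and at 2133 and 2225 and overlapped. T cell markers were lower alongside in CD8+ T cells. Of 9 T cell markers 5 fell between STAT3-/-PD-1-/- and WT CD8+ T cells, namely Cd8a, Cd8b1, Cd3d, Cd247, and Lck (55.6%, beside 17.2% of all genes), and their sum over all 9 went from 7546 and 7660 to 5150 and 5248 CPM, with Thy1 the most abundant. In the CD4+ libraries 1 of the 9 fell (11.1%, beside 12.9% of all genes), namely Cd4 (log2 fold change -0.52, SE 0.13, adjusted p = 0.0375 by edgeR), and the sum went from 7156 and 6787 to 5782 and 5592 CPM. Their part in the lower class I values was not tested. The transporter genes Tap1, Tap2, and Tapbp did not pass the test in either subset, with Tap1 at 478 and 555 in WT and 473 and 538 in STAT3-/-PD-1-/- CD8+ T cells. None of the 4 calls in CD8+ T cells held without either STAT3-/-PD-1-/- library. Without WT library 1 the calls of H2-T23 and Nlrc5 held, and without WT library 2 that of H2-K2.

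**Figure D3:**
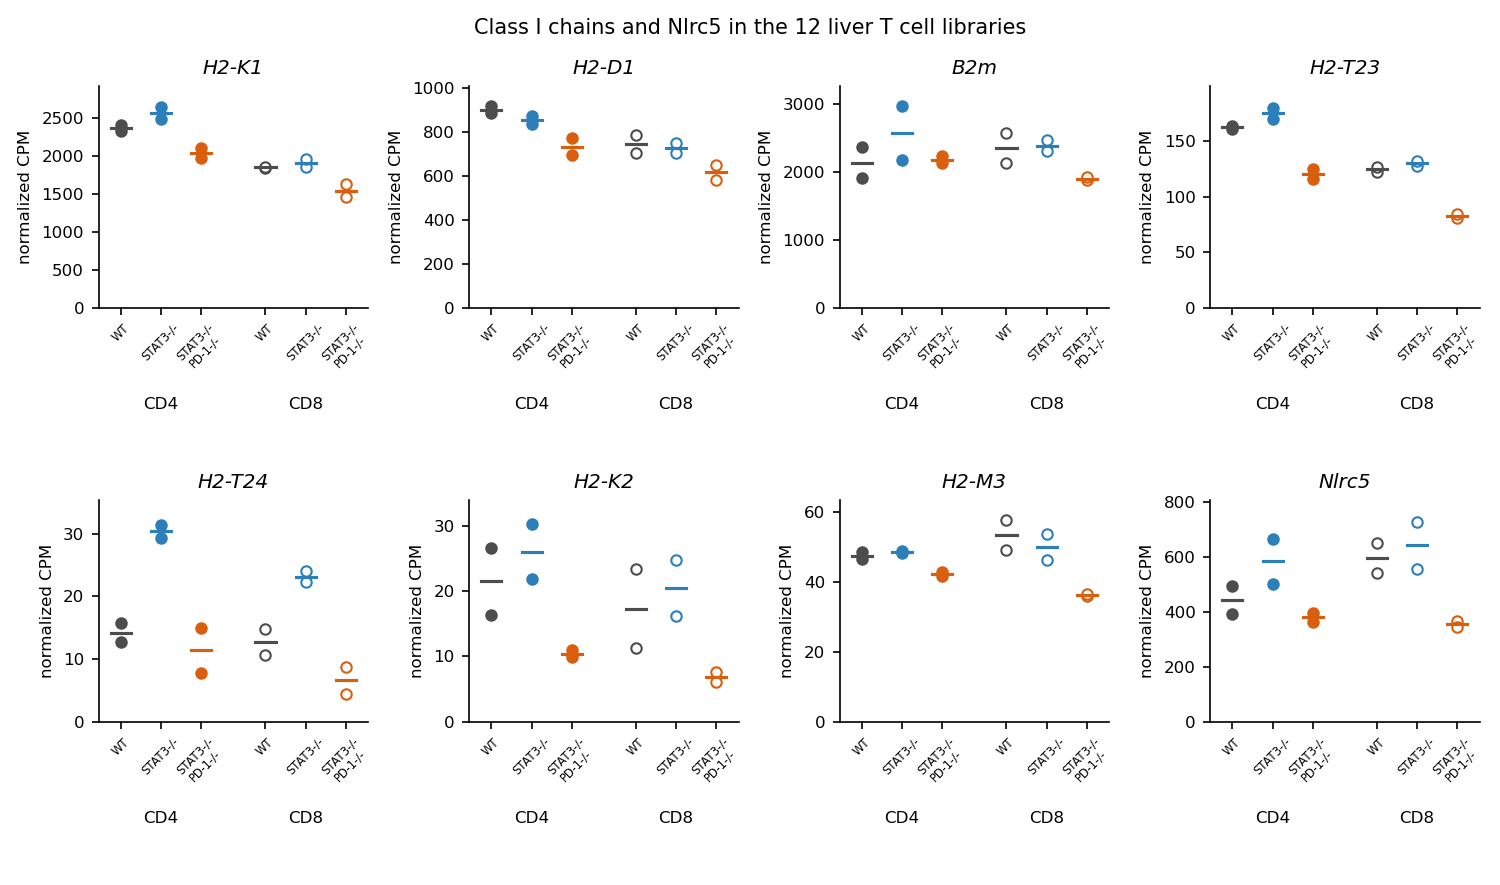
Normalized CPM from 0 of 7 class I chains or class I-like genes and Nlrc5 in the 12 libraries. Points are libraries (filled for CD4+, open for CD8+ T cells) and bars are means of 2; the STAT3-/-PD-1-/- libraries are the lowest of their subset for H2-T23 (80.9 and 83.9 in CD8+ T cells) and H2-K2, while H2-T24 peaks in STAT3-/- libraries at 31.4 and 29.3 in CD4+ T cells.

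STAT3-/-PD-1-/- and STAT3-/- T cells differ in genotype by PD-1, and graft-versus-host disease in the recipients differed too. The comparison of these genotypes covers both differences, and the part of each was not tested. It shares the STAT3-/-PD-1-/- libraries with the comparison above. In CD4+ T cells 3 of 37 genes were called, 8.11% beside 11.1% of all genes tested, namely H2-T24 and H2-K2 lower (5.03% of all genes were) and H2-Q10 higher (6.05%). DESeq2 and the replicate block each called more genes of the set here, as given in the part on processing. In CD8+ T cells 7 of 36 were called, 19.4% beside 16.8% of all genes tested, and all 7 were lower, beside 8.05% of all genes called lower. They are H2-Ob, H2-T24, H2-K2, Nlrc5, H2-T-ps, H2-T23, and Tapbpl. The medians in CD8+ T cells were -0.30 for class I chains, -0.21 for class II, and -0.04 for processing genes, beside 0.00 for all genes on the log2 scale.

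H2-T24 fell to 15 and 7.74 normalized CPM in STAT3-/-PD-1-/- from 31.4 and 29.3 in STAT3-/- CD4+ T cells (log2 fold change -1.40, SE 0.30, adjusted p = 0.0303 by edgeR), and to 8.71 and 4.41 from 22.2 and 24 in CD8+ T cells (log2 fold change -1.81, SE 0.32, adjusted p = 0.0146 by edgeR). STAT3-/-PD-1-/- and WT libraries overlapped for H2-T24 in CD4+ but not in CD8+ T cells. H2-Ob went from 0.992 and 2.09 to 0.354 and 0.490 in CD8+ T cells (log2 fold change -1.84, SE 0.50, adjusted p = 0.0474 by edgeR), with 8 and 12 counts in the STAT3-/-PD-1-/- libraries, and this call was lost with limma on log2(RPKM + 1). Nlrc5 fell by 0.84 on the log2 scale between these CD8+ groups (SE 0.16, adjusted p = 0.0182 by edgeR), and H2-T23 fell by 0.64 (SE 0.11, adjusted p = 0.0130 by edgeR). Tapbpl, which encodes a tapasin-like peptide editor, was at 128 and 128 in STAT3-/- and at 97.5 and 91.4 in STAT3-/-PD-1-/- CD8+ T cells (log2 fold change -0.43, SE 0.11, adjusted p = 0.0364 by edgeR). H2-T-ps, named as a pseudogene but annotated as protein-coding in RefSeq, went from 20.5 and 22.8 to 14.9 and 12.4 (log2 fold change -0.65, SE 0.17, adjusted p = 0.0384 by edgeR). The libraries of the 2 genotypes did not overlap for any of these genes, as was so for 59.2% of all genes in CD4+ and 63.1% in CD8+ T cells. All 3 calls in CD4+ T cells were lost without either STAT3-/-PD-1-/- library. In CD8+ T cells all 7 were lost without library 2 of that genotype, and without library 1 those of H2-T24 and H2-T23 held. Without STAT3-/- library 1 the call of H2-K2 was lost, without STAT3-/- library 2 those of H2-T23, Nlrc5, and H2-Ob, and without either WT library that of H2-Ob. The calls of H2-Q10 in CD4+ and of Tapbpl and H2-T-ps in CD8+ T cells were lost whichever of the 6 libraries of the subset was left out, and also when only the 4 libraries compared were fitted. Each of the 21 calls between genotypes named above had the same sign within the libraries numbered 1 and within those numbered 2.

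**Figure D4:**
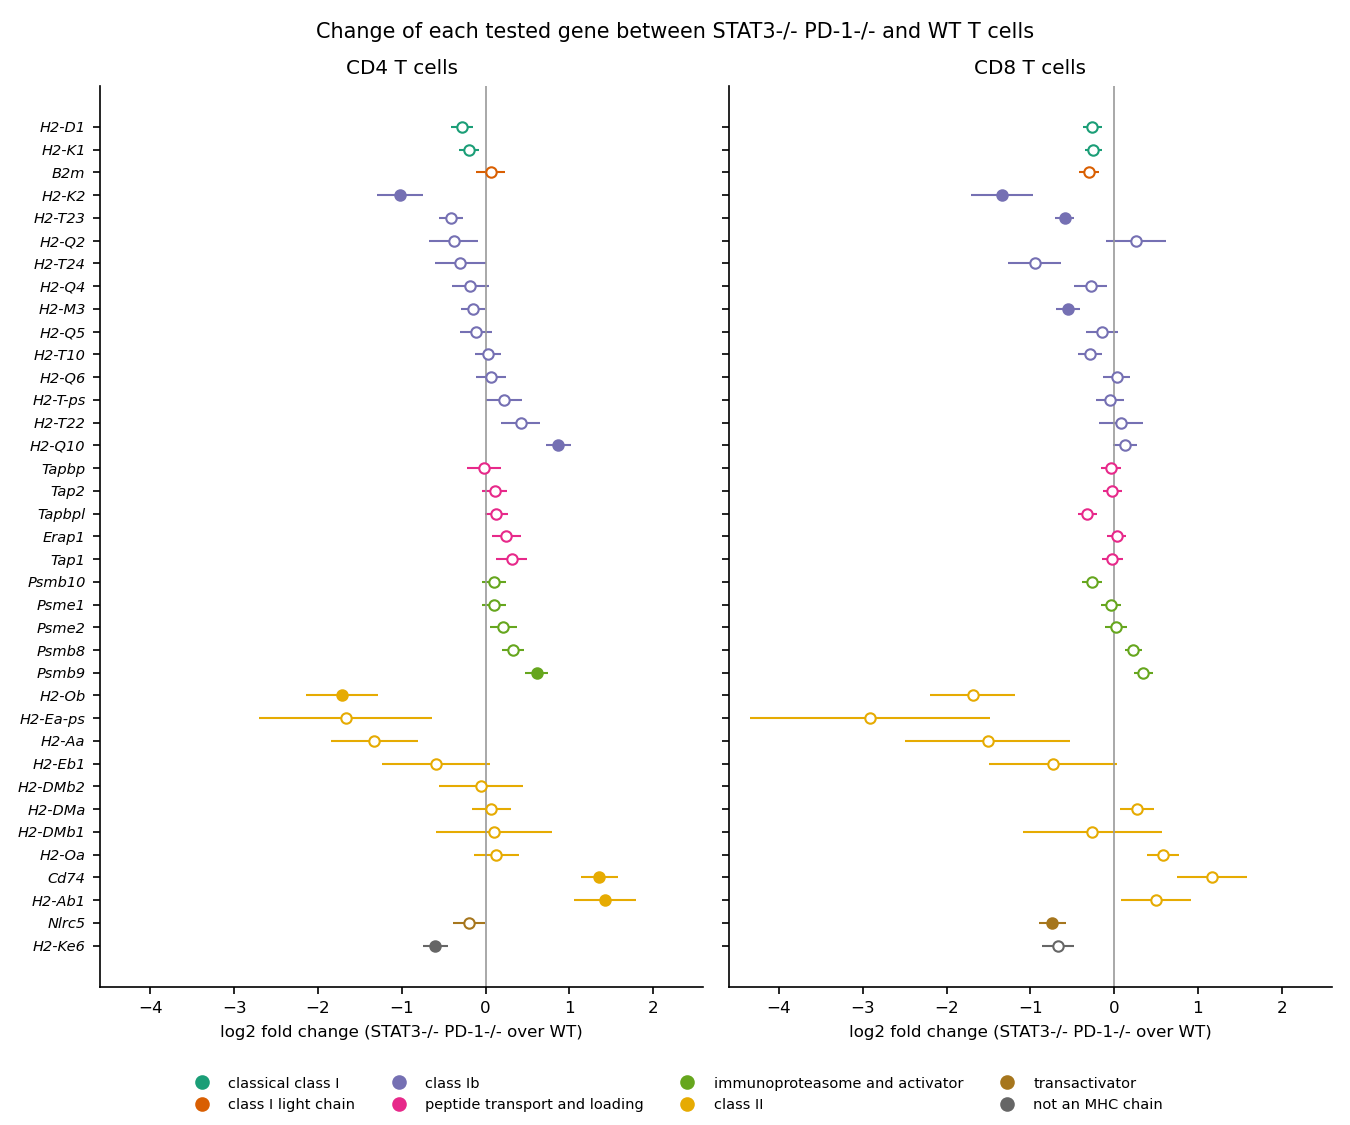
Log2 fold change of each tested gene between STAT3-/-PD-1-/- and WT CD4+ (left) and CD8+ (right) T cells, colored by role. Points are edgeR estimates, bars are 1 SE, and filled points passed an adjusted p of 0.05; 7 are filled on the left and 4, all below 0, on the right, and H2-DMb2 was not tested in CD8+ T cells.

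Whether a genotype changed a gene differently in CD8+ than in CD4+ T cells was read from an interaction term fitted to the 12 libraries. No gene of the set passed, neither for STAT3-/- against WT, where 0 of all 12334 genes (0%) did, nor for STAT3-/-PD-1-/- against WT, where 1 of 12334 (0.00811%) did (edgeR's quasi-likelihood test). At an unadjusted p under 0.05 there were 0 and 2 genes of the set, beside 1.85% and 4.43% of all genes, and DESeq2 called 0 in each. The 2 were H2-Q10, with a difference of -0.73 (SE 0.18, adjusted p = 0.319 by edgeR), and Tapbpl, with -0.44 (SE 0.16, adjusted p = 0.809 by edgeR). H2-Q10 was at 29.2 and 33.7 normalized CPM in WT, 26.5 and 30.1 in STAT3-/-, and 33.3 and 35.0 in STAT3-/-PD-1-/- CD8+ T cells, where WT and STAT3-/-PD-1-/- libraries overlapped. Per the paper, the CD8+ cells came from the livers that gave the CD4+ cells. That libraries of the same genotype and number share a pool was assumed, as no label says so. With the pool as a block 0 genes of the set passed for either term, and for STAT3-/-PD-1-/- against WT the difference of H2-Q10 was -0.73 (SE 0.15, adjusted p = 0.0725) and that of Tapbpl -0.43 (SE 0.11, adjusted p = 0.144, both by edgeR), where 84 of 12334 genes were called. At this depth and number of libraries, a difference between subsets was not shown for the calls made in one of them.

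Between the subsets themselves, 6 of 38 genes differed in WT T cells, 15.8% beside 10.5% of all genes tested. Of the 6, 5 were lower and 1 higher in CD8+ T cells, beside 5.59% and 4.91% of all genes. Cd74 was at 1.91 and 4.07 normalized CPM in CD8+ and at 12 and 15 in CD4+ WT T cells, a 4.49-fold difference (log2 fold change -2.17, SE 0.35, adjusted p = 0.00357 by edgeR). H2-DMa was at 10.3 and 10.7 against 23.8 and 22.6 (log2 fold change -1.15, SE 0.21, adjusted p = 0.00646 by edgeR), and H2-DMb2, a β chain of H2-DM, at 0.267 and 0.359 against 0.864 and 1.95 (log2 fold change -2.15, SE 0.52, adjusted p = 0.0256 by edgeR). Among class I genes H2-K1 and H2-T23 were lower in CD8+ T cells, with log2 fold changes of -0.36 (SE 0.10, adjusted p = 0.0379) and -0.39 (SE 0.10, adjusted p = 0.0425, both by edgeR). Tapbpl was the gene called higher, at 121 and 116 against 85.8 and 83.8 (log2 fold change 0.48, SE 0.11, adjusted p = 0.0228 by edgeR). With the pool as a block 10 genes were called, 26.3% beside 24.3% of all genes in that fit, adding H2-Ab1, H2-Q4, and H2-D1 lower and Nlrc5 higher in CD8+ T cells. Only Cd74 was called without WT CD8+ library 1, only Cd74 and H2-DMa without WT CD8+ library 2 or WT CD4+ library 2, and those 2 with H2-DMb2 without WT CD4+ library 1.

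Class II genes with few counts are given by library. H2-Ea-ps, the α chain of I-E, is not transcribed in C57BL/6 mice, in which its promoter is deleted, and is transcribed in H-2d mice such as BALB/c. Its counts in the libraries numbered 1 and 2 were 2 and 17 in WT, 5 and 15 in STAT3-/-, and 3 and 3 in STAT3-/-PD-1-/- CD4+ libraries, and 1 and 24, 3 and 14, and 1 and 2 in the same groups of CD8+ T cells. It was high in library 2 of WT and STAT3-/- T cells of both subsets and low in the 8 other libraries. The 9 macrophage genes Csf1r, Adgre1, Lyz2, C1qa, C1qb, C1qc, Clec4f, Vsig4, and Marco were chosen from a list of 17 dendritic cell and macrophage genes after their values were seen, so that their likeness to H2-Ea-ps was open to that choice and supports nothing. Their summed counts were 26 and 252 in WT, 31 and 166 in STAT3-/-, and 21 and 36 in STAT3-/-PD-1-/- CD4+ libraries, and 23 and 255, 14 and 173, and 18 and 21 in CD8+ T cells. H2-Aa had 4 and 32 counts in WT, 5 and 20 in STAT3-/-, and 6 and 6 in STAT3-/-PD-1-/- CD8+ T cells, and H2-Eb1 had 8 and 16, 8 and 33, and 7 and 7, each higher in the libraries numbered 2 of WT and STAT3-/- than in the 4 others. In the CD4+ libraries H2-Aa had 13 and 31, 21 and 26, and 8 and 10 counts, so that it was about as high in STAT3-/- library 1, with 31 macrophage counts, as in library 2, with 166. H2-Eb1 had 10 and 25, 8 and 25, and 12 and 12 there. The sort was for H-2Kb, TCRβ, and CD4 or CD8, and its purity was not measured here. The part of recipient transcripts and of macrophage transcripts in H2-Aa, H2-Eb1, and H2-Ea-ps was not tested.

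Cd74 and H2-Ab1 were highest in the STAT3-/-PD-1-/- libraries of CD4+ T cells, as given above. The 9 macrophage genes, with the limit of their choice, summed there to 0.909 and 1.43 normalized CPM, beside 1.18 and 10.7 in WT. In CD8+ T cells Cd74 was at 1.91 and 4.07 in WT, 2.63 and 4.54 in STAT3-/-, and 5.92 and 7.51 in STAT3-/-PD-1-/- libraries, and the last lay above all others without a call (log2 difference from WT 1.17, SE 0.42, adjusted p = 0.0983 by edgeR). Of the B cell genes listed, Cd79a, Ms4a1, and Pax5 were each at 0.381 normalized CPM or less in every library, and Ms4a1 had no count. The sum of 7 B cell genes ran higher in CD4+ T cells without STAT3, from 9.91 and 18.6 in WT to 33.5 and 42.0 in STAT3-/- and 43.7 and 44.7 in STAT3-/-PD-1-/- libraries, and Cd22 supplied most of it (log2 fold change 1.85 between STAT3-/-PD-1-/- and WT, SE 0.34, adjusted p = 0.0154 by edgeR). Cd22 was thus higher in the same libraries as Cd74. Cd79b did not rise in that comparison (log2 difference -0.13, SE 0.34, adjusted p = 0.842 by edgeR). In CD8+ T cells the 7 genes summed to 25.7 and 24.7 in WT, 24.9 and 28.4 in STAT3-/-, and 20.1 and 19.9 in STAT3-/-PD-1-/- libraries. There the sum was lowest where Cd74 was highest. The part of B cell transcripts in Cd74 was not tested. The full list of 17 dendritic cell and macrophage genes summed to 80.5 and 82.5 CPM in WT and to 15.5 and 19.2 in STAT3-/-PD-1-/- CD4+ libraries, and to 423 and 403 and to 46.3 and 41.3 in CD8+ T cells, without the pattern of the 9 genes. Itgax, which activated T cells also make, supplied most of it in WT, at 70.5 and 62.2 in CD4+ T cells, and less of it in STAT3-/-PD-1-/- CD4+ libraries, at 4.98 and 5.72. Zbtb46, a transcription factor of dendritic cells, was at 0.500 and 0.804 in WT and 0.779 and 1.63 in STAT3-/-PD-1-/- CD4+ libraries (log2 difference 0.90, SE 0.49, adjusted p = 0.276 by edgeR). The part of dendritic cell transcripts in Cd74 was not tested, and Siglech was at 0 in every library. Of these libraries' dendritic cell markers Xcr1, Clec9a, and Flt3 stayed at 0.133 CPM or less.

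**Figure D5:**
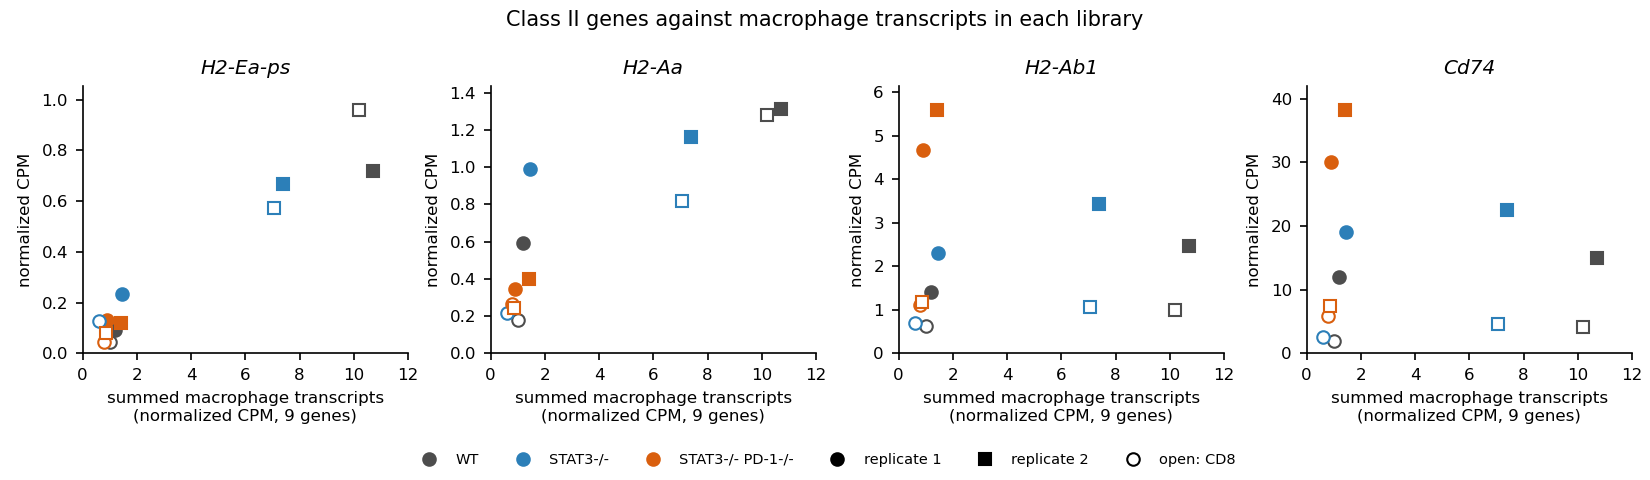
Normalized CPM of H2-Ea-ps, H2-Aa, H2-Ab1, and Cd74 (vertical axes, from 0) against the summed normalized CPM of 9 macrophage genes (horizontal axes) in each of the 12 libraries. Circles are libraries numbered 1 and squares those numbered 2, filled for CD4+ and open for CD8+ T cells; the 9 genes were chosen after their values were seen, so the position of the 4 libraries at 7.07 to 10.7 CPM on the horizontal axes supports nothing, and Cd74 is highest in the STAT3-/-PD-1-/- CD4+ libraries, at 30.1 and 38.2.

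Of 20 other antigen processing genes tested, 4 were called between WT and STAT3-/-PD-1-/- CD4+ libraries, beside 12.9% of all genes. Thop1, a cytosolic peptidase, rose by 1.48 on the log2 scale (SE 0.20), Canx, an endoplasmic reticulum chaperone, by 0.68 (SE 0.16), and Ifi30, a lysosomal thiol reductase, by 0.67 (SE 0.16), while Ctsd, a lysosomal protease, fell by 0.46 (SE 0.12). In CD8+ T cells 5 of 20 were called, beside 17.2% of all genes, with Thop1, Canx, Pdia3, and Calr higher and Ctsd lower. Canx, Pdia3, and Calr assist the folding and loading of class I chains. Canx was at 548 and 487 normalized CPM in WT and at 787 and 745 in STAT3-/-PD-1-/- CD8+ T cells, where the class I heavy chains were lowest.

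Of 19 regulators of MHC genes and of interferon signaling tested, 4 were called between WT and STAT3-/-PD-1-/- CD4+ libraries and 3 in CD8+ T cells, beside 12.9% and 17.2% of all genes. Jak1, a kinase of the interferon receptors, Ifngr1, a chain of the interferon-γ receptor, and Socs1, an inhibitor of this pathway, fell in both subsets. Jak1 was at 1301 and 1268 in WT, 1289 and 1287 in STAT3-/-, and 832 and 868 in STAT3-/-PD-1-/- CD4+ libraries, and at 1258 and 1099, 1274 and 1247, and 721 and 707 in CD8+ T cells, so that the STAT3-/-PD-1-/- libraries stood well apart both times. Irf8, a transcription factor of the interferon response, rose in CD4+ T cells from 56.5 and 69.5 in WT to 145 and 121 (log2 fold change 1.10, SE 0.19, adjusted p = 0.0117 by edgeR). Between STAT3-/-PD-1-/- and STAT3-/- T cells 3 of 19 regulators were called in CD4+ libraries (Rfx5, Jak1, and Irf8), 15.8% beside 11.1% of all genes, and 1 in CD8+ libraries (Jak1), 5.26% beside 16.8%. Rfx5, a subunit of the complex that binds the promoters of both MHC classes, fell in CD4+ T cells by 0.99 on the log2 scale (SE 0.22, adjusted p = 0.0336 by edgeR). Ifng and Irf1 differed widely between the libraries numbered 1 and 2, with Ifng at 483 and 237 in WT CD4+ T cells and Irf1 at 547 and 287. Ciita had too few counts to test between genotypes within a subset. In the fit of 12 libraries it was tested and passed neither for an interaction nor between CD8+ and CD4+ WT T cells.

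Promoters of 5 of the genes called are shown, some that fell (H2-T23, H2-M3, H2-Ob) and some that rose in CD4+ T cells (H2-Q10, Psmb9). Each is the 250 bases before the start of a transcript, from RefSeq on GRCm38.p6 (the build of the files, mm10), written 5′ to 3′ on the strand of the gene. Capitals mark matches on either strand to CCAAT (which NF-Y binds, beside RFX, in MHC promoters), to GAAA followed by 2 bases of any kind and GAAA again (an interferon response element), and to TTCNNNGAA (a STAT site).
H2-T23 (chr17:36032702-36032951, - strand): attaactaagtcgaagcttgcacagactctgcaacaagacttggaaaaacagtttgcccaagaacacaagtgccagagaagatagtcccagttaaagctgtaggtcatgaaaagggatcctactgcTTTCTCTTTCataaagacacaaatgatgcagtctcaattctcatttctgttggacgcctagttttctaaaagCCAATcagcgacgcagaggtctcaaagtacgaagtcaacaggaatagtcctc
H2-M3 (chr17:37269984-37270233, + strand): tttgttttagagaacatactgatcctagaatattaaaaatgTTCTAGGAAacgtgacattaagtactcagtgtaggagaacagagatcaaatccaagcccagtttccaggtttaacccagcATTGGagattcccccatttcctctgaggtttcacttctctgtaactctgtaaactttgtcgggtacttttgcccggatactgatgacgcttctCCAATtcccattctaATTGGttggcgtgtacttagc
H2-Q10 (chr17:35469839-35470088, + strand): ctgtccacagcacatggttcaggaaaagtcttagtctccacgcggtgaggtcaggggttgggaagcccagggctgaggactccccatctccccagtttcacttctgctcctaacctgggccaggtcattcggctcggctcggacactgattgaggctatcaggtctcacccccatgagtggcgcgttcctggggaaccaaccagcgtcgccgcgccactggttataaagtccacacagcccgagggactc
H2-Ob (chr17:34238655-34238904, + strand): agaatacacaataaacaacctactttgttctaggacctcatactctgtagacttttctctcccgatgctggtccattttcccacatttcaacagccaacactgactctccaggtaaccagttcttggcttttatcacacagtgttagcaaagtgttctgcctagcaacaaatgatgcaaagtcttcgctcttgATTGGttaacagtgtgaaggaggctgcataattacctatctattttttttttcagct
Psmb9 (chr17:34187331-34187580, - strand): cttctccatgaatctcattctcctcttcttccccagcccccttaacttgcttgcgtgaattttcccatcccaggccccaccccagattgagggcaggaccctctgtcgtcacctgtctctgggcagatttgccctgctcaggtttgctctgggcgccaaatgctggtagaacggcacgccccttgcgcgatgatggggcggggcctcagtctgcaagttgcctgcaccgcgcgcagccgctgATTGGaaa

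Promoter windows were found for 41 of the 58 genes, 45 windows in all. A CCAAT match lay in 23 of 26 class I windows (88.5%) and 8 of 9 class II windows (88.9%), beside 33.3% of windows of processing genes and 33.8% of all 32851 windows. Class I genes share descent, so their windows are not independent. Motifs were not tested against direction. H2-Q10, called higher in CD4+ T cells, holds none of the 3 motifs in its window. Psmb9, also called higher there, holds a CCAAT match, as does H2-Ob, called lower. H2-Ke6 and H2-T-ps, called lower and not shown, hold CCAAT matches and neither other motif. H2-T23, called lower in CD8+ T cells, holds a CCAAT match 52 to 48 bases before the start. It also holds an interferon response match 124 to 115 bases before the start. The latter motif was in 3 of the 45 windows (B2m, H2-T22, and H2-T23), 6.67% beside 2.98% of all windows. B2m and H2-T22 were not called between genotypes. H2-M3 holds a TTCNNNGAA match 209 to 201 bases before its start, and this motif was in 8.89% of the set's windows beside 7.02% of all. Psmb9 and Tap1 lie back to back with 225 bases between them on chromosome 17, so that the window of Psmb9 reaches into Tap1 and its CCAAT match is read in both windows. A match is a description of letters and says nothing of binding in these cells.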

How the data were processed

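The 12 libraries were grouped by the genotype and cell type in their labels. Per the supplemental methods, the authors aligned 51 bp single-end reads to mm10 with STAR (version 2.7), obtained counts per RefSeq gene by HTSeq-count (version 0.11, mode not given in the sources used here), and deposited raw counts and RPKM. Both deposited tables hold 25078 genes. The counts were tested, and the authors' RPKM served as an alternative. The labels carry a growth protocol of another cell line and another library kit than the methods, and these fields were not used.

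Counts were filtered with filterByExpr (minimum count 10, minimum total 15), scaled by TMM, and tested with edgeR (version 4.0.16) by the quasi-likelihood test in R (version 4.3.3), with 6 libraries per fit for a subset and 12 for interactions and for CD8+ against CD4+ T cells. Benjamini-Hochberg adjustment ran over all genes tested, with 0.05 as the threshold. Normalized CPM and normalized RPKM use the TMM library sizes and the deposited exon lengths. Each of the 6 groups has 2 libraries, and p-values measure only the spread between pools, with a total of 21676125 to 24551477 counts per library behind them. In counts simulated for STAT3-/-PD-1-/- against WT with 12334 genes, 57% of 2-fold and 99% of 4-fold changes were recovered in CD4+, and 54% and 99% in CD8+ T cells.

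The alternatives were DESeq2 (version 1.42.0), RLE scaling, no filter, the replicate number or the pool as a block, only the 4 libraries compared, limma (version 3.58.1) on log2(RPKM + 1), and each library left out. Genes named with values are fixed anchors of each class, every gene of the set called between genotypes, and the targeted genes. Of other lists the rule names 4 called genes per comparison, lists with 5 calls are named in full, and 2 listed genes are not reported here. H2-DMb2, H2-Oa, H2-Q4, H2-Q6, and uncalled genes of the lists were named after their values were seen. The set and all lists were chosen with earlier results of these data known, so no p is given for a list. Figures were drawn with matplotlib (version 3.10.9) in Python (version 3.11.15).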

Additional observations from a re-analysis of the deposited data

How the results depend on the processing

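No direction turned under the alternatives run for the genes called between genotypes and for Stat3 and Pdcd1, and other genes were not followed. Between STAT3-/- and WT CD4+ T cells, DESeq2 and the replicate block each called 1 gene (H2-T24) in place of 0. Between STAT3-/-PD-1-/- and STAT3-/- CD4+ T cells, DESeq2 called 6, the replicate block 8, and the fit of only the 4 libraries compared 2 in place of 3. Between STAT3-/-PD-1-/- and WT CD8+ T cells, DESeq2 called 8, no filter 8, the replicate block 9, and limma on log2(RPKM + 1) 5 in place of 4. The pool as a block called 10 in place of 6 between CD8+ and CD4+ WT T cells. The causes were not tested. Apart from the pool as a block, the share of all genes called under an alternative is not given here. These counts therefore cannot be read as an excess of the set over all genes. With a library left out, counts ran from 0 to 7 (STAT3-/-PD-1-/- against WT) and 0 to 3 (against STAT3-/-) in CD4+, from 0 to 6 and 0 to 4 in CD8+, and from 1 to 6 for CD8+ against CD4+ WT T cells, where fewer libraries also leave fewer degrees of freedom. They stayed at 0 for STAT3-/- against WT in both subsets and for both interactions.

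The labels do not say that a replicate number marks a shared batch, though the methods speak of 2 batches for the T cell receptor libraries. Deviations of same-numbered libraries correlated from 0.199 to 0.63 between genotypes in CD4+ and from 0.0601 to 0.651 in CD8+ T cells. Block counts are given here, and the block's calls of Stat3 and H2-T24 beside their values. Values of several class II genes rest on few counts, as in H2-Ob with 8 to 51 per library, whereas H2-DMa had 231 to 684. Reads of paralogous class I genes cannot be assigned with certainty.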

Other observations

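Cd79b, Itgax, and Cd68, listed as markers of other cell types, were lower in STAT3-/-PD-1-/- than in WT CD8+ T cells, and which cells their transcripts came from was not tested. Itgax was at 392 and 363 normalized CPM in WT, 220 and 243 in STAT3-/-, and 27.8 and 20.2 in STAT3-/-PD-1-/- CD8+ T cells, while Csf1r was at 0.958 or less in every CD8+ library. Its log2 fold change between STAT3-/-PD-1-/- and WT was -3.97 in CD8+ (SE 0.18, adjusted p = 0.00077) and -3.61 in CD4+ T cells (SE 0.18, adjusted p = 0.00106, both by edgeR). Cd79b was at 14.5 and 10.6 in WT and at 5.92 and 5.10 in STAT3-/-PD-1-/- CD8+ T cells, where Cd79a was at 0.0889 or less. Cd68 was at 29.1 and 28.9 in WT and at 16.9 and 18.3 in STAT3-/-PD-1-/- CD8+ T cells (log2 fold change -0.71, SE 0.13, adjusted p = 0.0154 by edgeR).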
